A study of Homo sapiens with 6 samples.

Results

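The 39 genes described here encode the keratins, tight junction proteins and desmosomal proteins that hold an epithelial sheet together, with a few further epithelial genes (EPCAM, MUC1, RAB25, CDS1 and the surface protease ST14 with its inhibitors). They were taken by symbol from the 27968 genes of the deposited tables, and all 39 were found. Keratins of type I and type II pair to build the intermediate filaments of epithelial cells. Tight junctions seal neighbouring cells through claudins and other membrane proteins that are anchored by cytoplasmic adaptors, and desmosomes tie the keratin filaments of neighbouring cells together through specialised cadherins. In carcinoma cells these genes are used as a measure of how epithelial a cell is.

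The cells were H23, an established human lung adenocarcinoma line, grown in RPMI medium with serum. Of 6 libraries, 3 came from cells transfected with a control siRNA and 3 from cells transfected with a HOTAIR-N siRNA, all with the RNAiMAX reagent. HOTAIR is a long non-coding RNA of the HOXC cluster, and HOTAIR-N names one of its forms. RNA was extracted after 48 hours. The transfections were independent but used a single cell line and, as far as the labels show, one siRNA against the target, so that p-values measure the spread between these transfections. What is specific to HOTAIR-N and what is specific to this siRNA cannot be told apart.

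Libraries held 32715361 to 36578681 expected counts (reads assigned to genes by RSEM). The targeted gene was checked first. HOTAIR had 169, 148 and 202 expected counts with control siRNA and 88, 74 and 82 with HOTAIR-N siRNA, or 48.7% of the control level after scaling (log2 fold change -1.04, standard error, SE, 0.14, edgeR adjusted p = 1.32e-05). By an exact permutation test, two-sided, p was 0.1, and 3 libraries against 3 allow no smaller value. Log2 CPM values (counts scaled to library size) correlated at 0.9939 or more within a group and at 0.9771 or less between groups. Counting noise alone did not account for the differences within any pair of replicates, and control replicate 1 stood farthest from its group (chi-square per degree of freedom 14.8 and 13.5, beside 2.06 to 7.05 for the other pairs). Changes were common across the transcriptome. Of 15072 genes tested, 57.5% passed the threshold (a Benjamini-Hochberg adjusted p under 0.05 in edgeR's quasi-likelihood test), 28.7% higher and 28.8% lower with HOTAIR-N siRNA.

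The epithelial label was borne out in part. KRT8 and KRT18, the keratins of simple epithelia, did not fall below 1334 TPM (RSEM's transcript level, adjusted for gene length and library size) in any library, and together they made up 83.9% to 87% of the summed TPM of the 39 genes. EPCAM was at 5.66 to 7.99 TPM, KRT19 at 4.80 to 5.65 and KRT7 at 1.08 to 2.94. CDH1, which encodes E-cadherin, was present at 11.6 to 25.3 TPM. Several of the 39 genes were at or near 0. CLDN7, CRB3, ST14 and RAB25, which are typical of polarised epithelia, and the hair keratin KRT81 did not exceed 0.35 TPM in any library. The mesenchymal filament gene VIM was at 1764 to 2415 TPM, in the range of the keratins. Of the alveolar lineage markers, SFTPB and SFTPC had 0 to 3 counts per library, NAPSA was at 0.42 and 0.593 TPM on average in the control and HOTAIR-N groups, and NKX2-1 was at 1.06 to 3.02 TPM.

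Among the 39 genes, 33 had enough counts to be tested, and the 6 that did not were KRT81, CLDN7, MARVELD3, CRB3, ST14 and RAB25. With HOTAIR-N siRNA 12 were higher, 10 were lower and 11 did not pass, and without control replicate 1 the counts were 12 higher and 11 lower. That is 66.7% called, beside 57.5% of all genes tested. The median log2 fold change of the 33 genes was 0.02 and that of all genes 0.01, and the median size of the change regardless of sign was 0.37 beside 0.29. CPM values did not overlap between the siRNAs for 25 of the 33, beside 62.9% of all genes. The genes thus moved in both directions, in shares near those of all genes.

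**Figure D1:**
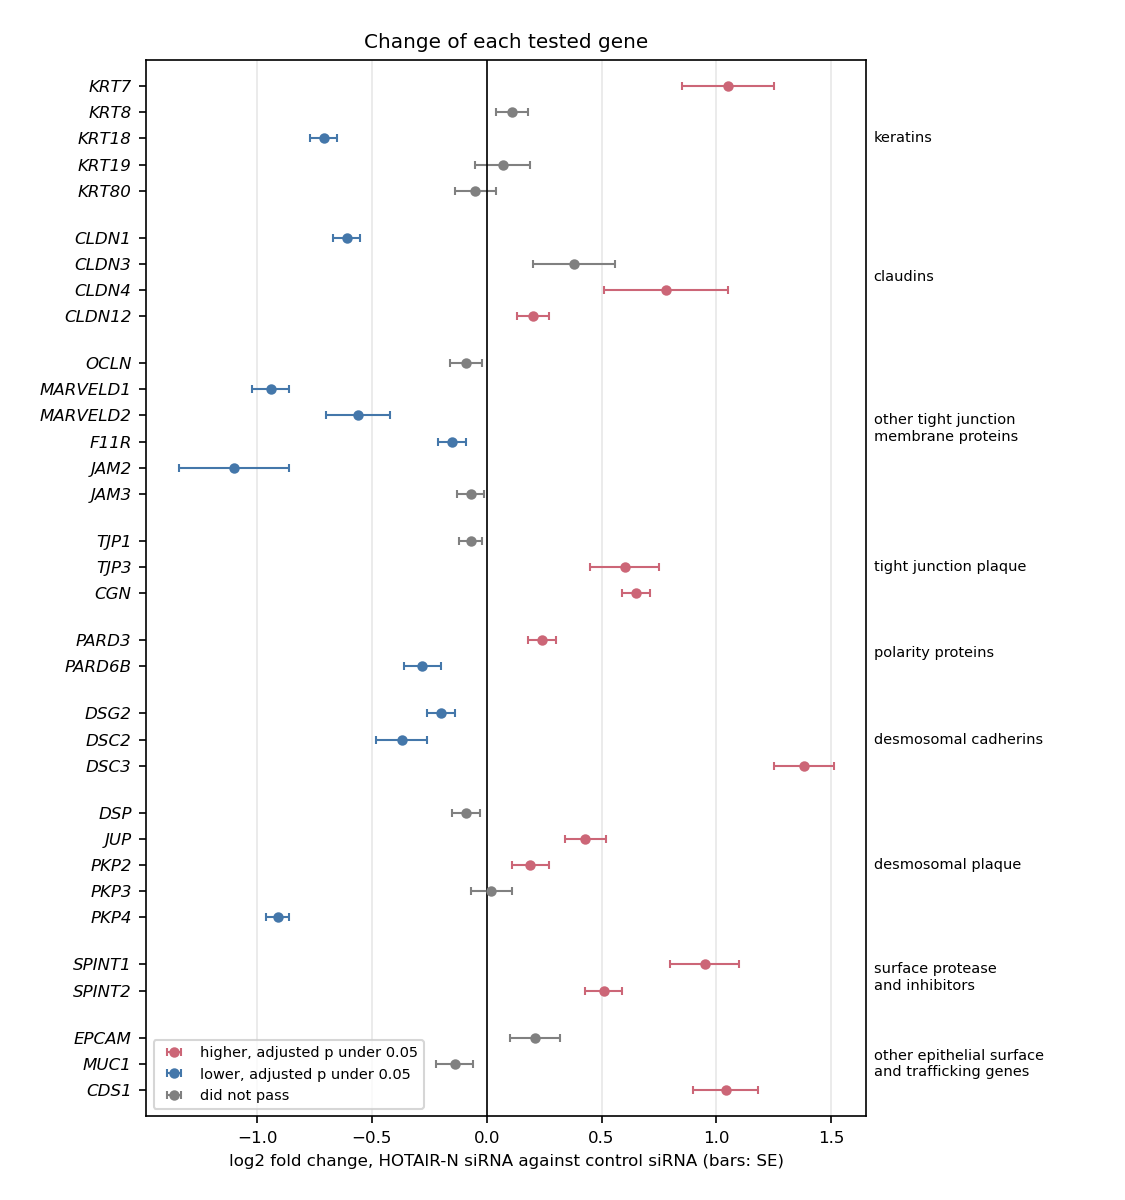
Log2 fold change, HOTAIR-N siRNA minus control siRNA, of the 33 tested genes, grouped by role, with bars of 1 SE. Values run from -1.10 for JAM2 to 1.38 for DSC3, and the 12 higher and 10 lower genes are spread over the roles.

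**Figure D2:**
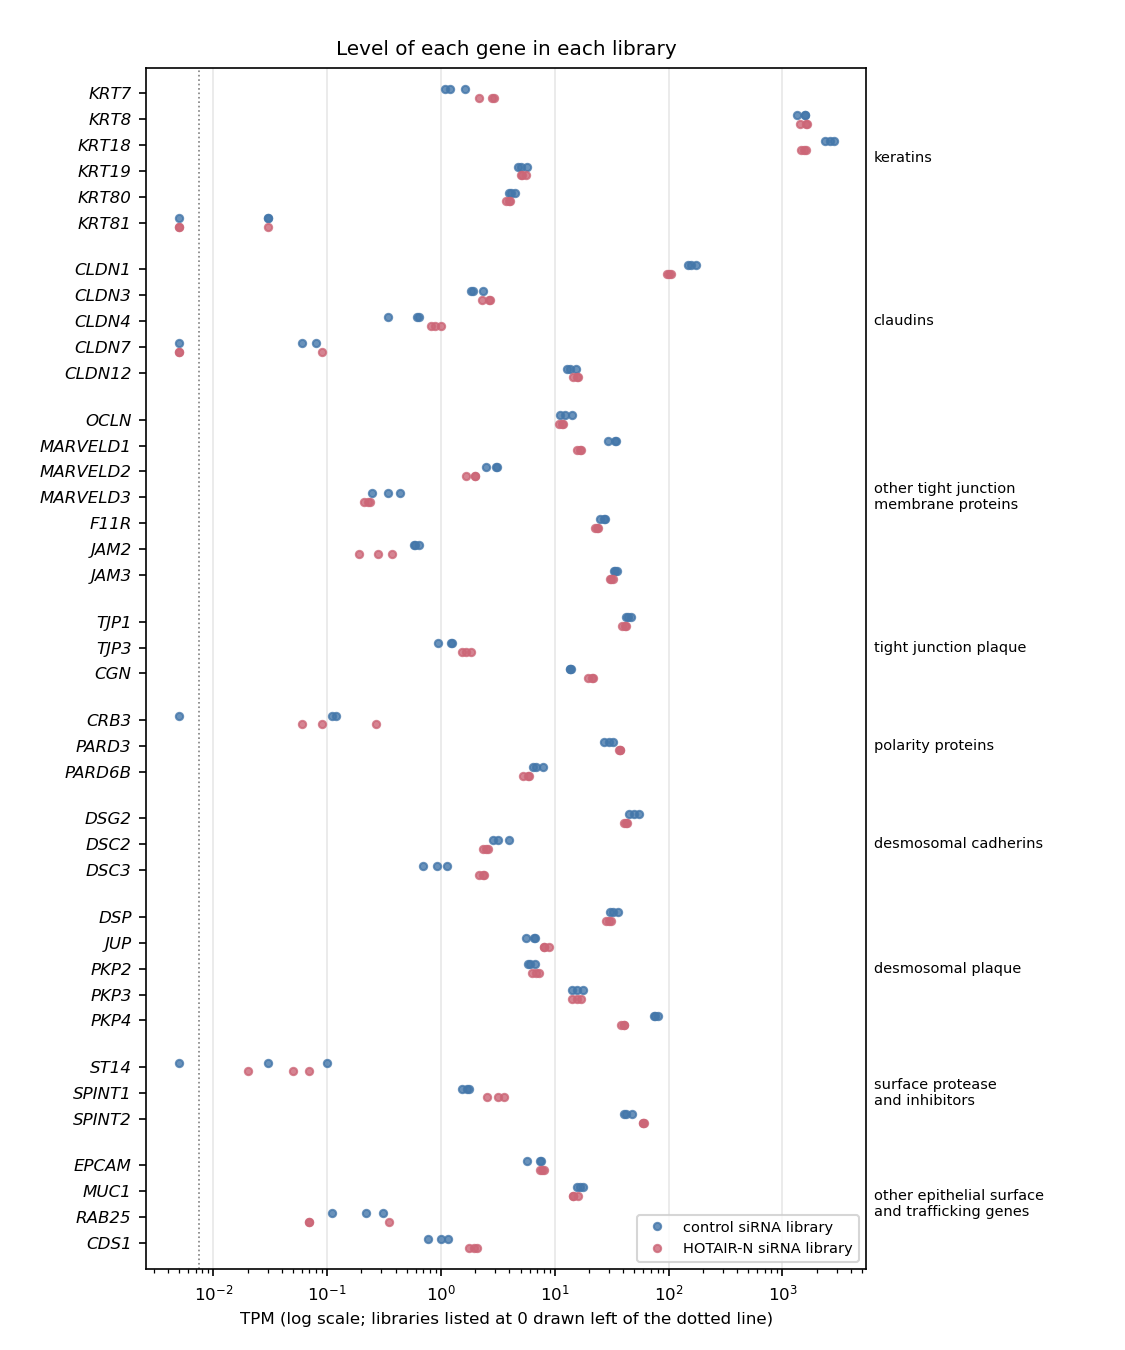
Level of each of the 39 genes in TPM, on a log axis, with 1 point per library and values of 0 drawn left of the dotted line. KRT8 and KRT18 stand at 1334 TPM or more, CLDN1 lies between 97.4 and 174.8 TPM, and 8 genes have a mean at or below 1 TPM.

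The keratins held the most abundant genes and the most uneven pair. KRT18, the type I keratin of simple epithelia, was measured at 2611, 2809 and 2355 TPM with control siRNA and at 1449, 1597 and 1557 TPM with HOTAIR-N siRNA. The highest HOTAIR-N library lay well below the lowest control library, and the gene fell by 0.71 on the log2 scale (SE 0.06, adjusted p = 1.23e-07). Its type II partner KRT8 was measured at 1592, 1588 and 1334 TPM with control siRNA and at 1433.5, 1654 and 1622 TPM with HOTAIR-N siRNA. These ranges overlapped, and the log2 fold change of 0.11 (SE 0.07) did not pass (adjusted p = 0.207), although it did so at 0.17 when control replicate 1 was left out (adjusted p = 0.0271).

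The proportion of the pair therefore shifted. KRT18 exceeded KRT8 by a TPM ratio of 1.64, 1.77 and 1.77 in the control libraries, while the ratio was 1.01, 0.97 and 0.96 with HOTAIR-N siRNA, a mean of 1.72 ± 0.07 against 0.98 ± 0.03 (SD, n = 3). This ratio was formed after the 2 genes' values were known, so it is a description without a test. The pseudogene copies KRT18P55 and KRT8P41 held 0 to 6 counts in each library. Whether reads of the keratins were shared with these or other copies was not tested. In the GENCODE annotation exons of KRT8 and KRT18 overlap by 525 nt on opposite strands, and the sources used here do not say whether counting used strand.

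**Figure D3:**
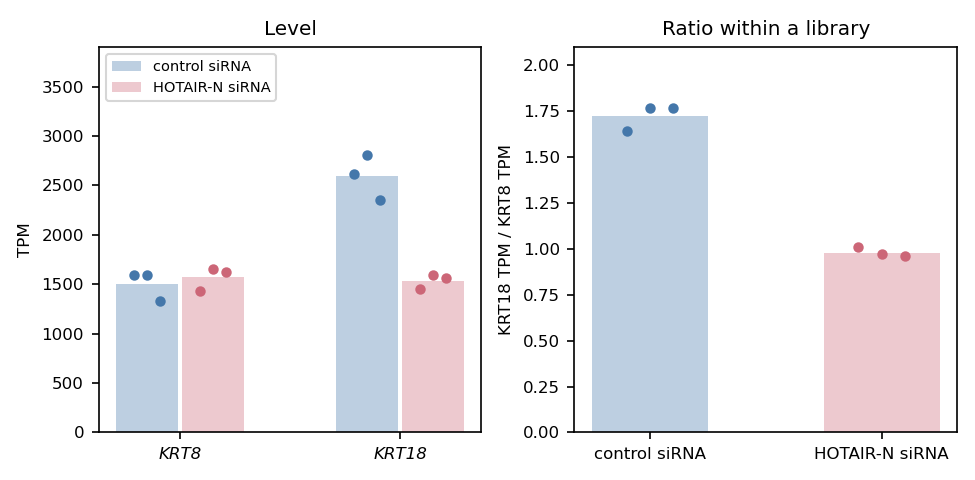
TPM of KRT8 and KRT18, and their ratio, in each library, with bars for group means and points for libraries. KRT18 lies between 2355 and 2809 TPM with control siRNA and between 1449 and 1597 TPM with HOTAIR-N siRNA, while the KRT8 ranges overlap.

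The other keratins were far less abundant. KRT7, a type II keratin of glandular and lung epithelium, rose from 1.63, 1.08 and 1.21 TPM to 2.15, 2.82 and 2.94 TPM (log2 fold change 1.05, SE 0.20, adjusted p = 0.000368). Every HOTAIR-N library lay above every control library. KRT19 and KRT80 were at 3.73 to 5.65 TPM in all libraries and did not pass. Their log2 fold changes were 0.07 (SE 0.12) for KRT19 and -0.05 (SE 0.09) for KRT80.

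The claudins, which form the paracellular seal, split. CLDN1, the most abundant at 148.6, 174.8 and 155.9 TPM with control siRNA, was at 105.5, 97.4 and 100.5 TPM with HOTAIR-N siRNA and fell by 0.61 on the log2 scale (SE 0.06, adjusted p = 4.3e-07). Its groups were far apart. CLDN4, at 0.62, 0.34 and 0.64 TPM with control siRNA, was at 0.82, 1.00 and 0.89 TPM with HOTAIR-N siRNA (log2 fold change 0.78, SE 0.27, adjusted p = 0.0227). That call was not made with DESeq2 (adjusted p = 0.0867), without control replicate 2 (0.11) or without HOTAIR-N replicate 2 (0.075).

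CLDN12 was at 12.7, 15.2 and 13.5 TPM with control siRNA and at 16.1, 15.6 and 14.4 TPM with HOTAIR-N siRNA. The TPM ranges overlapped and the change was small (log2 fold change 0.20, SE 0.07, adjusted p = 0.0313). The CLDN12 call was lost on leaving out control replicate 1 (adjusted p = 0.0509), control replicate 3 (0.0782), HOTAIR-N replicate 1 (0.129) or HOTAIR-N replicate 2 (0.0884). CLDN3 had a log2 fold change of 0.38 (SE 0.18, adjusted p = 0.0878), which passed at 0.51 without control replicate 1 (adjusted p = 0.0409). CLDN7 was at most at 0.09 TPM.

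Of the genes grouped here as other membrane proteins of tight junctions, 6 were tested. Of these, 4 were lower and none was higher, where 28.8% of all genes were lower. MARVELD1, a MARVEL-domain membrane protein, fell from 34.1, 34.2 and 29.2 TPM to 16.6, 17.2 and 15.5 TPM (log2 fold change -0.94, SE 0.08, adjusted p = 8.34e-08), and its groups were widely separated. MARVELD2, which encodes tricellulin of the corners where 3 cells meet, was at 2.50, 3.08 and 3.04 TPM with control siRNA and at 1.65, 2.00 and 1.99 TPM with HOTAIR-N siRNA (log2 fold change -0.56, SE 0.14, adjusted p = 0.0034). All 3 values with HOTAIR-N siRNA were below the control range. MARVELD3, the last of the MARVELD genes listed, was at 0.44 TPM or below and was not tested.

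The junctional adhesion molecules differed among themselves. JAM2 was low, with 29, 41 and 32 expected counts under control siRNA against 14, 15 and 17 under HOTAIR-N siRNA, and fell by 1.10 on the log2 scale (SE 0.24, adjusted p = 0.00131). The counts did not overlap. F11R, which encodes JAM-A, was at 25.1, 27.7 and 26.9 TPM with control siRNA and at 23.8, 22.7 and 23.3 TPM with HOTAIR-N siRNA. Its log2 fold change of -0.15 (SE 0.06, adjusted p = 0.0411) did not pass with upper-quartile scaling, without scaling, without a filter or with the length trend removed (adjusted p from 0.0617 to 0.0776). It was also lost on leaving out control replicate 2 (adjusted p = 0.0861), control replicate 3 (0.105), HOTAIR-N replicate 2 (0.173) or HOTAIR-N replicate 3 (0.138). JAM3 (log2 fold change -0.07, SE 0.06) and occludin, OCLN (-0.09, SE 0.07), did not pass, and OCLN did not exceed 14.3 TPM.

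Of the 3 plaque genes on the cytoplasmic face of the tight junction, 2 were higher and TJP1 did not pass, where 28.7% of all genes were higher. CGN, which encodes cingulin, a plaque protein that links the junction to actomyosin and microtubules, was at 13.6, 13.5 and 14.0 TPM with control siRNA and at 19.8, 21.4 and 21.7 TPM with HOTAIR-N siRNA. The groups were clearly apart (log2 fold change 0.65, SE 0.06, adjusted p = 5.2e-07). The scaffold TJP3 (ZO-3) rose from 0.94, 1.26 and 1.22 TPM to 1.52, 1.65 and 1.85 TPM (log2 fold change 0.60, SE 0.15, adjusted p = 0.00366). TJP1 (ZO-1), the most abundant of these scaffolds at 38.9 to 46.9 TPM, did not pass (log2 fold change -0.07, SE 0.05).

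The polarity genes went opposite ways by small amounts. PARD3, the scaffold of the PAR complex, was at 27.0, 32.7 and 29.9 TPM with control siRNA and at 37.4, 37.7 and 36.4 TPM with HOTAIR-N siRNA (log2 fold change 0.24, SE 0.06, adjusted p = 0.00357). Its partner PARD6B was at 6.46, 7.95 and 6.88 TPM and then at 5.31, 5.93 and 5.78 TPM (log2 fold change -0.28, SE 0.08, adjusted p = 0.00841). Neither pair of ranges overlapped. CRB3, the apical Crumbs protein, had 0.27 TPM at most.

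The desmosomal cadherins all passed, where 57.5% of all genes tested did, and DSC3 was opposite in direction to DSC2 and DSG2. DSC3, a desmocollin typical of stratified epithelia, had 96, 147 and 130 expected counts with control siRNA and 310, 327 and 305 with HOTAIR-N siRNA. This was the largest rise of the 33 genes (log2 fold change 1.38, SE 0.13, adjusted p = 2.99e-07), but from 0.70, 1.12 and 0.92 TPM. DSC2, the desmocollin of simple epithelia, was at 2.84, 3.93 and 3.18 TPM with control siRNA and at 2.50, 2.35 and 2.59 TPM with HOTAIR-N siRNA (log2 fold change -0.37, SE 0.11, adjusted p = 0.00717). The desmoglein DSG2, by far the most abundant of the 3, was at 44.8, 54.9 and 49.4 TPM and then at 40.8, 42.3 and 43.0 TPM (log2 fold change -0.20, SE 0.06, adjusted p = 0.0108). The DSG2 call was lost without control replicate 2 (adjusted p = 0.0526).

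In the desmosomal plaque the clearest change was that of PKP4. This armadillo protein, also called p0071, is found at desmosomes and adherens junctions. It fell from 74.7, 80.8 and 76.2 TPM to 38.1, 40.5 and 40.5 TPM, with the smallest adjusted p of the 33 genes (log2 fold change -0.91, SE 0.05, adjusted p = 2.35e-09). The antisense gene PKP4-AS1, whose exons overlap those of PKP4 by 418 nt in GENCODE, was also lower (log2 fold change -1.83, SE 0.32, adjusted p = 0.000205) but held only 6 to 28 counts per library.

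JUP, which encodes plakoglobin, the armadillo protein shared by desmosomes and adherens junctions, rose from 6.65, 6.61 and 5.54 TPM to 8.07, 8.92 and 8.0 TPM (log2 fold change 0.43, SE 0.09, adjusted p = 0.00085). PKP2 was at 5.78, 6.66 and 6.04 TPM and then at 6.37, 7.33 and 6.83 TPM, ranges that overlapped (log2 fold change 0.19, SE 0.08, adjusted p = 0.0446). The PKP2 call was lost with DESeq2 (adjusted p = 0.0875), without a filter (0.0585), and on leaving out control replicate 1 (0.0661), control replicate 3 (0.0981), HOTAIR-N replicate 2 (0.205) or HOTAIR-N replicate 3 (0.101). Desmoplakin, DSP, which binds the keratin filaments, was at 28.4 to 35.7 TPM and did not pass (log2 fold change -0.09, SE 0.06), except without control replicate 1 (-0.12, adjusted p = 0.0377). PKP3 had a log2 fold change of 0.02 (SE 0.09).

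Both inhibitors of epithelial surface proteases rose, where 28.7% of all genes were higher. The protease they restrain was close to undetected. SPINT2 went from 48.0, 40.4 and 42.1 TPM to 59.1, 59.9 and 61.1 TPM (log2 fold change 0.51, SE 0.08, adjusted p = 4.83e-05). SPINT1 went from 1.69, 1.78 and 1.53 TPM to 2.56, 3.58 and 3.15 TPM (log2 fold change 0.95, SE 0.15, adjusted p = 5.86e-05). For both genes all HOTAIR-N libraries were above all control libraries. ST14, which encodes matriptase, was at 0.10 TPM or below.

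Of the remaining epithelial genes, CDS1, an enzyme of phosphatidylinositol synthesis, rose from 0.77, 1.15 and 1.01 TPM to 1.78, 2.07 and 1.96 TPM (log2 fold change 1.04, SE 0.14, adjusted p = 1.46e-05). EPCAM, an epithelial adhesion molecule, did not pass (log2 fold change 0.21, SE 0.11, adjusted p = 0.109). The transmembrane mucin MUC1 did not pass either (-0.14, SE 0.08, adjusted p = 0.139), except when a trend of counts with gene length was removed (-0.21, adjusted p = 0.0364). In bulk RNA such as this, fewer cells expressing a gene and less RNA per cell cannot be told apart.

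Other genes of the same structures moved both ways as well. Of 212 further genes in 11 lists, 125 were tested, 37 were higher, 33 lower and 55 did not pass, or 56.0% called, close to the 57.5% of all genes tested (28.7% higher and 28.8% lower). The counts of the lists below are small and are read against the same shares. The tight junction adaptors and adhesion molecules outside the 39 genes were mostly called, 9 of 17 higher and 5 lower, with a median log2 fold change of 0.21. Among these AMOTL1, an angiomotin-like scaffold, rose by 1.10 and CXADR, a receptor of the junctional membrane, by 0.76, while the more abundant AMOTL2 had -0.21. The rise of CXADR was smaller in TPM (means of 54.7 and 67.6) than in CPM (82.7 and 140.4). The AMOTL2 call was lost without HOTAIR-N replicate 1 (adjusted p = 0.0802). The other 4 lower genes were CGNL1 (-2.89), the paralogue of CGN, with 26, 28 and 17 expected counts under control siRNA and 2, 5 and 2 under HOTAIR-N siRNA, the actin-linked adaptor AFDN (-0.28), and the scaffolds MAGI3 (-0.36) and MAGI2 (-0.35). The MAGI2 call (adjusted p = 0.0421) was lost with DESeq2, limma-voom, upper-quartile or no scaling, or the length trend removed (0.0509 to 0.0993), and on leaving out control replicate 2 (0.197), HOTAIR-N replicate 2 (0.132) or HOTAIR-N replicate 3 (0.122). Of 6 other claudin-like genes tested only CLDND1 passed (0.20), and not without HOTAIR-N replicate 1 (adjusted p = 0.0654).

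Polarity genes were lower in 7 and higher in 4 of 20 tested. PARD3B, the paralogue of PARD3, had the lowest value, -1.69, from 0.91 to 1.09 TPM with control siRNA to 0.28 to 0.31 TPM with HOTAIR-N siRNA. Of the paralogues of PARD6B, PARD6A rose by 0.68 and PARD6G fell by 0.61. The kinase MARK2 fell by 0.48.

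Adherens junction genes were higher in 4 and lower in 5 of 13. CDH1 rose from 11.6, 12.1 and 12.3 TPM to 24.1, 25.3 and 24.1 TPM (log2 fold change 1.07), and CDH3, P-cadherin, rose by 1.00. VCL, the actin-binding protein vinculin, fell by 0.47. The classical cadherin of epithelia thus rose while the abundant desmosomal DSG2 was slightly lower.

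The other desmosome and cornified envelope genes held 3 lower and none higher of 4 tested, among them PERP (-0.46) and PPL, periplakin (-0.53). Only 3 of 30 other keratins had enough counts to be tested. KRT15 (-1.14) and KRT10 (-0.38) were lower. Of 9 hemidesmosome and gap junction genes, the connexin GJC1 was lower (-0.55) and the connexin GJA1 was higher (0.33), while the tetraspanin CD151, the most abundant of them, did not pass (-0.06).

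Among proteases, inhibitors and mucins, 4 of 12 were higher and none was lower. HGF, a growth factor activated by such proteases, rose by 1.34, MUC3A by 0.86 and MUC16 by 0.81. The receptor F2RL1, the most abundant of the list, did not pass (0.01). Of 12 epithelial transcription and splicing factors 5 were higher and 2 lower. GRHL3, a grainyhead factor of epithelial barriers, rose by 1.54, NKX2-1, the lung lineage factor, by 1.02 and KLF5 by 0.49. These values stand beside KRT18 and CLDN1, which were lower.

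Markers of other cell states were measured beside these. Of 21 mesenchymal markers tested, 7 were higher and 7 lower. COL1A1 (1.66), TNC (0.76) and ITGA5 (0.70) were higher, while the abundant VIM was lower (-0.30). The 24 listed mesenchymal markers summed to 2459 to 2700 TPM with control siRNA and to 2088 to 2180 TPM with HOTAIR-N siRNA. VIM made up most of both sums, with means of 2295 and 1813 TPM, so the sums mainly show VIM and not the list. None of the 24 was at 0 in all libraries and 4 were below 1 TPM in all. The 18 markers of blood, endothelial, muscle, liver, melanocytic and neural cells summed to 14.6 to 16.3 TPM and 14.3 to 15.2 TPM, with 14 below 1 TPM in every library and CD3E at 0. Of the 8 tested, PMEL (0.71) and VWF (0.96) were higher and ITGAM was lower (-0.94). The VWF call was lost with DESeq2 (adjusted p = 0.0842) and without control replicate 1 (0.0517). The part of these markers in the results was not tested.

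Isoforms gave a further readout of the same genes. The tables listed 118 isoforms of the 39 genes by RefSeq name, 66 were tested, 5 were higher, 12 were lower and 49 did not pass. That is 25.8% called beside 19.5% of all tested isoforms (9.39% higher and 10.1% lower). The 17 called isoforms came from 10 genes. On simulated data isoform changes were recovered far less often than gene changes and with a larger share of false calls. Far fewer features were changed in the simulation than were called here, so its rates do not carry over to these calls. An isoform that did not pass may still differ, and a called one may be less secure than a called gene. Isoform values rest on RSEM's division of shared reads, whose error the tables do not give.

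PARD3 rose as a gene while some of its isoforms fell. Of its 11 listed isoforms 2 end in a short 3′ end, with 1031 or 988 codons and a 3′ UTR of 92 or 96 nt, and 4 run on to a longer coding end of 1244 to 1356 codons with a 3′ UTR of 1608 or 1609 nt, per GENCODE release 29. The ends of the remaining 5, which held at most 0.48 TPM in all, were not looked up because of their low level. The last 30 bases of the coding sequence set the 2 ends apart, and are shown 5′ to 3′ with the stop codon in capitals.
PARD3 long end: cctgagaaagggaggcccttctattccTGA
PARD3 short end: cttgccaaactgaagcccgagaagagaTGA

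The long-ended NM_001184790 was at 3.11, 4.90 and 4.40 TPM with control siRNA and at 1.23, 1.21 and 1.26 TPM with HOTAIR-N siRNA (log2 fold change -1.69, SE 0.18, adjusted p = 0.00284). This call was made under every setting tried. The long-ended NM_001184787 had 42.7, 126.5 and 142.2 expected counts with control siRNA and 0 in every HOTAIR-N library, at least 31.8-fold lower against a floor of 3 counts per library. Its adjusted p of 0.0116 rose to 0.197 with limma-voom, to 0.0545 without control replicate 2 and to 0.0519 without control replicate 3. A further long-ended isoform, NM_019619, was at 0.26 to 1.80 TPM with control siRNA and 1.36 to 1.92 TPM with HOTAIR-N siRNA and did not pass (adjusted p = 0.452).

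The short-ended isoforms were higher. NM_001184792 was at 14.3, 19.5 and 16.2 TPM with control siRNA and at 24.4, 23.4 and 22.8 TPM with HOTAIR-N siRNA (log2 fold change 0.56, SE 0.10, adjusted p = 0.0181). NM_001184794 was at 5.65, 5.58 and 7.27 TPM and then at 9.65, 10.6 and 9.69 TPM (log2 fold change 0.75, SE 0.13, adjusted p = 0.0147). All HOTAIR-N libraries exceeded all control libraries for both. The first call was lost on leaving out control replicate 3 (adjusted p = 0.0701) or any one HOTAIR-N library (0.0592 to 0.0677). The second was lost on leaving out control replicate 1 (0.0538), control replicate 2 (0.0503) or any one HOTAIR-N library (0.0551 to 0.0633).

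Summed by their end, the short-ended isoforms rose from 22.9 ± 2.62 to 33.5 ± 0.864 TPM and the long-ended ones went from 6.81 ± 0.386 to 3.59 ± 0.412 TPM (SD, n = 3). The short end made up 74.1%, 76.9% and 78.7% of PARD3 TPM with control siRNA and 90.9%, 90.1% and 89.3% with HOTAIR-N siRNA. The difference of 13.6 percentage points was several times the SD of either group (2.33 and 0.826). This grouping was formed after the isoform values were seen and is given without a test.

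**Figure D4:**
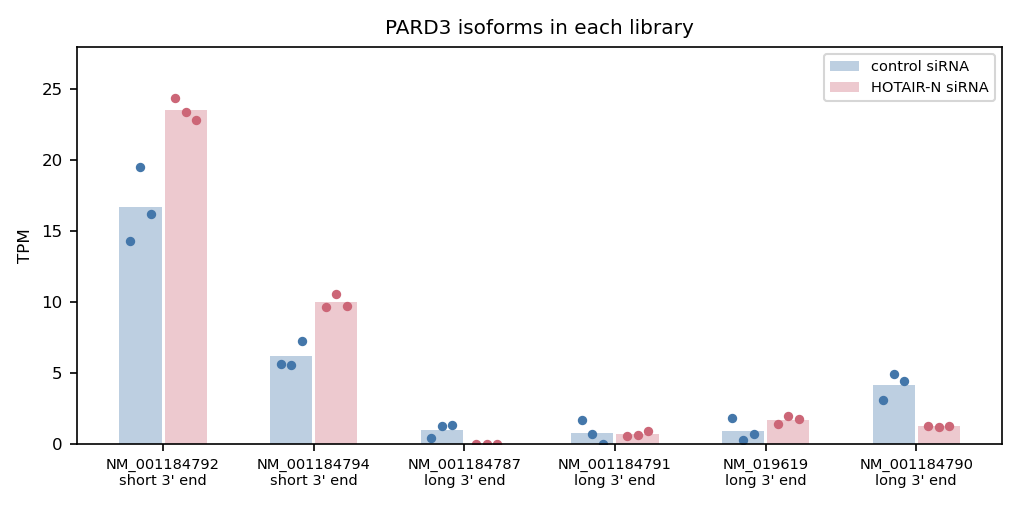
TPM of each PARD3 isoform with the short or the long 3′ end in each library, with bars for group means and points for libraries. The short-ended NM_001184792 lies between 14.3 and 19.5 TPM with control siRNA and between 22.8 and 24.4 TPM with HOTAIR-N siRNA. The long-ended NM_001184790 lies between 3.11 and 4.90 TPM and between 1.21 and 1.26 TPM.

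PKP4 contrasted with PARD3 in that all 4 of its tested isoforms were lower. Another listed isoform, NM_003628, was not tested. It had 287.6 expected counts in HOTAIR-N replicate 2 and 0 in every other library. The most abundant, NM_001005476, went from 48.1 ± 2.57 to 24.2 ± 0.45 TPM (log2 fold change -0.94, adjusted p = 0.000257) and NM_001304969 from 23.2 ± 0.835 to 12.1 ± 1.40 TPM (-0.89, adjusted p = 0.00322; SD, n = 3 for both). The minor NM_001304970 (-1.41) and NM_001304971 (-1.24) had adjusted p of 0.0223 and 0.0232. The NM_001304970 call was lost on leaving out any one control library (adjusted p 0.055 to 0.0738) or HOTAIR-N replicate 2 (0.0847). That of NM_001304971 was lost on leaving out control replicate 1 (0.066), control replicate 3 (0.0828) or any one HOTAIR-N library (0.0653 to 0.0722).

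Further isoforms were assigned 0 counts in all HOTAIR-N libraries. NM_001244734 of MARVELD2 had 18.3, 14.7 and 15.5 expected counts with control siRNA, at least 5.03-fold lower against the floor of 3 counts per library, but its call (adjusted p = 0.0213) was lost on leaving out any single library (0.055 to 0.114). The main MARVELD2 isoform, NM_001038603, did not pass (log2 fold change -0.30, SE 0.22). TJP1, which did not pass as a gene, had 2 such minor isoforms, NM_001301025 (32.4, 36.3 and 38.8 control counts, adjusted p = 0.00927) and NM_001355012 (22.4, 42.7 and 37.9 control counts, adjusted p = 0.0129). Both calls were lost without control replicate 2 (0.058 and 0.0732) or 3 (0.0599 and 0.0706), and NM_001355013, the TJP1 isoform with the highest mean over all 6 libraries, did not pass (-0.14, SE 0.06). The other called isoforms were those of CDS1, CGN, CLDN1, KRT18, MARVELD1 and SPINT2, each in the direction of its gene. Among these the CDS1 call was lost on leaving out control replicate 3 (adjusted p = 0.0576) or any one HOTAIR-N library (0.0504 to 0.0707), and the SPINT2 call on leaving out control replicate 3 (0.0549), HOTAIR-N replicate 2 (0.0515) or HOTAIR-N replicate 3 (0.055).

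The transcripts of the 39 genes were also searched for the 7-letter words GACCAAT and ACCAATA, which overlap by 6 letters and which an earlier look at these same data had related to lower expression. Only the transcript strand was read, in RefSeq-named transcripts of GENCODE release 29 (GRCh38). All 39 genes had a match, 32 by their most abundant isoform. A 3′ UTR with either word occurred in 10.1% of 11363 tested genes searched, and a coding sequence with one in 11.2%. Among the members 3 of 10 lower genes, 1 of 12 higher genes and none of 11 that did not pass had a word in the 3′ UTR. Because the words came from these same data, these counts are a description and cannot test a link with lower expression. The share among all lower genes was not taken, and the length of the 3′ UTR was not taken into account. Other words counted in the same search are not reported here. Of the 6 genes that were not tested, MARVELD3 has a word in its 3′ UTR and RAB25 has 2 in its coding sequence. The sites in the 3′ UTRs of the 4 tested genes are shown with 10 bases on each side, the word in capitals.
CLDN1: cctggaaacaGACCAATagacattttg
JAM2: cctaagtctgGACCAATtgattgcttt
PARD6B: atattgtaaaACCAATAgatcctggtt
CLDN12: ctttgtttttGACCAATcaatgaagcc

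CLDN1, JAM2 and PARD6B were lower and CLDN12 was higher. The CLDN1 word starts at base 2485 of a 3′ UTR of 2576 nt, that of JAM2 at 2799 of 2890, that of PARD6B at 2835 of 3253 and that of CLDN12 at 99 of 2543, counted from 1 after the stop codon. KRT18, also lower, has both words in its coding sequence, a sequence of 1293 nt.
KRT18 site at base 1263: tggtgtctgaGACCAATgacaccaaag
KRT18 site at base 574: cattgatgacACCAATAtcacacgact

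The coding sequences of PKP2 (higher) and of OCLN, TJP1 and DSP (not passed) hold a word as well, while MARVELD1, MARVELD2, PKP4, F11R, DSG2 and DSC2 were lower and hold none in either region of the transcript searched. For OCLN, DSC2 and PKP4 that transcript was not the most abundant isoform. In PARD3, the 3′ UTR of the long-ended isoforms holds 1 ACCAATA and that of the short-ended isoforms holds neither word. Of the long-ended isoforms NM_001184790 and NM_001184787 were lower. NM_019619 (log2 fold change 0.92) and NM_001184791 (-0.18), with the same word, did not pass. A match is a description of the letters only.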

How the data were processed

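RNA of 6 H23 libraries was sequenced. The submitters' processing notes name STAR 2.6.0c and RSEM 1.3.0, with hg19 as the build. The annotation release and whether counting used strand are not given in the sources used. Per the file headers the authors deposited, for 27968 genes and 70006 isoforms, expected counts (RSEM's read estimates, not whole in 10.9% and 42.2% of values), TPM and each isoform's percent of its gene.

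Expected counts were rounded and tested on all genes with edgeR 4.0.16 (filterByExpr, TMM, robust quasi-likelihood, R 4.3.3), and isoforms in the same way. Adjusted p-values are Benjamini-Hochberg values over all features tested. Fold changes are HOTAIR-N siRNA over control siRNA. TPM is given as deposited. Alternatives were RLE, upper-quartile and no scaling, no filter and a stricter filter, DESeq2 1.42.0, limma-voom (limma 3.58.1), the replicate number as a block, removal of a trend with length, and each library left out in turn. The steps were tested on simulated data.

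The 39 genes, the 212 further genes and the tests were chosen with earlier results of these data known. Genes named are HOTAIR, all 39, and from each further list the 3 with the smallest p past the threshold and the most abundant one. Some genes that this rule takes are not reported here. The lineage markers NAPSA, SFTPB and SFTPC were named in advance as cell type markers. Isoforms named are those past the threshold and the most abundant ones. CGNL1, AFDN, MAGI2, MAGI3, PARD6G, NM_019619, NM_001184791 and NM_003628 were chosen after their values were seen. Depth was 32715361 to 36578681 expected counts per library, so that genes near 1 CPM, such as JAM2, rest on few counts. Pseudogene copies, overlapping and antisense genes are uncertain. Sequences came from GENCODE release 29 on another build, so no coordinates are given, and transcripts were matched by RefSeq name within 10% of the deposited length.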

Additional observations from a re-analysis of the deposited data

How the results depend on the processing

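Of the 22 called genes, 17 kept their direction and call in every setting that tested them (JAM2 was not tested under the stricter filter), and CLDN4, CLDN12, F11R, DSG2 and PKP2 missed the threshold in some. Without one library at a time, 9 to 12 members were higher and 8 to 11 lower, and 7503 to 9234 genes were called in all. HOTAIR then lay between -1.14 and -0.94. Called member isoforms depended more on single libraries, with 1 to 6 higher (5 with all libraries) and 6 to 11 lower (12 with all). DESeq2 called 7 higher and 17 lower isoforms. Settings that give no fit for a low gene have no value.

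Same-numbered libraries of the siRNAs did not deviate together (correlations -0.12, 0.02 and -0.04). With so few libraries this cannot show whether the numbers pair the samples. With the replicate number as a block, 10 members were higher and 9 lower, 33 and 31 further genes were higher and lower, and 1 and 5 member isoforms. Calls lost under this block are not in the lists of lost calls above. They include the genes CLDN12 (adjusted p = 0.0649), F11R (0.117) and PKP2 (0.0868). Among isoforms they include NM_000224 of KRT18 (0.0551) and NM_001184787 of PARD3 (0.0936). The short-ended PARD3 isoforms NM_001184792 (0.0832) and NM_001184794 (0.0815) were lost as well. Also lost were the called isoforms of MARVELD2, CDS1, SPINT2 and TJP1, and the minor NM_001304970 and NM_001304971 of PKP4. Not every library correlated best with its own number.

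Signs turned only for genes that had not passed. With the length trend removed KRT19 was -0.0042, PKP3 -0.01 and F2RL1 -0.02. Without one library at a time KRT19 ran from -0.00078 to 0.16, KRT80 from -0.09 to 0.02, CD151 from -0.12 to 0.02, PKP3 from -0.05 to 0.14 and F2RL1 from -0.04 to 0.05. In alternatives chosen after seeing the data, with expected counts in place of TPM, the PARD3 short-end share differed by 18.5 percentage points, beside 13.6, and the KRT18 to KRT8 ratio by -0.591, beside -0.75. Both differ by construction, since counts are not divided by length. Without one library they were 12.3 to 14.6 points and -0.788 to -0.724.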
